A study of Rattus norvegicus with 9 samples.

Results

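Mb, Cygb, Car2, Car3, Car4 and Car14 encode the oxygen-binding proteins myoglobin and cytoglobin and 4 carbonic anhydrases. They were taken as 6 of the 17327 rows of a table of read counts per gene, matched by symbol, and all 6 symbols were present. The genes were picked from results of the same libraries, with their differences between the 3 groups already known, so every difference given for them is a description with no test and no p-value. RNA was sequenced from neonatal rat ventricular myocytes, primary heart muscle cells kept in culture. The first group received vehicle, the second 50 µM phenylephrine and the third 10 nM IGF1, each for 48 hours, with 3 samples a group. Phenylephrine is an alpha1-adrenergic agonist and IGF1 is insulin-like growth factor 1, and both are used to make these cells grow in size. The labels name no rat strain, do not say what the vehicle was, and do not tell whether a replicate is a separate culture, another litter or a technical repeat. An adjusted p therefore measures the spread among these libraries and no more.

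Myoglobin binds oxygen reversibly through a haem group, stores it in heart and skeletal muscle, helps it diffuse towards mitochondria and reacts with nitric oxide. Cytoglobin is a related haem protein found at low levels in many tissues, mainly in fibroblast-like cells, and also consumes nitric oxide. Carbonic anhydrases catalyse the reversible reaction of carbon dioxide and water to bicarbonate and a proton. The products of Car2 and Car3 act in the cytosol, the former being a very fast enzyme and the latter a slow one typical of slow skeletal muscle and fat. Those of Car4 and Car14 sit on the outer face of the cell membrane, Car4 held by a lipid anchor and Car14 by a transmembrane segment.

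The bases just before the start of transcription of Mb and Car14 are shown because both genes differed between all 3 groups, one strongly and the other with little spread between samples. They come from RefSeq (GRCr8), in which promoters of Mb, Car4 and Car14, 3 of the 6 genes, were matched. Each sequence runs 5′ to 3′ on the gene's own strand and holds the 250 bases before the start. The Mb stretch lies at chr7:110647743-110647992 and the Car14 stretch at chr2:186138165-186138414, both on the minus strand. Capitals mark 3 kinds of match: the TATA box (TATAAA), the E-box (CANNTG, a site of basic helix-loop-helix factors) and the core of the hypoxia response element (ACGTG).
Mb: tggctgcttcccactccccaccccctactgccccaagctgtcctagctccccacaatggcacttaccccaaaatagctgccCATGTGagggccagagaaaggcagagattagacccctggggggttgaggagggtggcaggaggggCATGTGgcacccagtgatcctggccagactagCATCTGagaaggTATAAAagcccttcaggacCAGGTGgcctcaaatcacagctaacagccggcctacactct
Car14: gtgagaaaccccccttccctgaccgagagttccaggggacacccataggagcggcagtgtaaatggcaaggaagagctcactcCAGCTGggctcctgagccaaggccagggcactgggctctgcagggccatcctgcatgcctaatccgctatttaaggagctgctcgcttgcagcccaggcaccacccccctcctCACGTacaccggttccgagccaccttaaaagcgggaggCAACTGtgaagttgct
The Mb stretch holds a TATA box 60 to 55 bases before the start and 4 E-boxes, the nearest 41 to 36 bases and the farthest 169 to 164 bases before it. The Car14 stretch holds 2 E-boxes and, 54 to 50 bases before the start, 1 ACGTG core read on the other strand, but no TATA box. Both strands were searched in 33469 RefSeq promoters of the same length, of which 12.9% held a TATA box, 65.5% an E-box and 16.6% the ACGTG core. Neither stretch matched the second hypoxia core (GCGTG, 25.9% of promoters), the MCAT element (CATTCC, 12.1%), the NFAT core (GGAAA, 56.9%), the GC box (GGGCGG, 30.5%), the MEF2 site (2.96%) or the CArG box (1.5%). In the searched letters none of the matches in these stretches overlapped another. Such a match is a string of letters, not a binding site, and no binding was measured here.

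Total counts ran from 31274396 to 48505265 reads per sample, and 1 CPM (reads relative to library size times its TMM factor, as edgeR computes it) rested on 29.1 to 51.6 reads. All 12 cardiomyocyte markers looked at, Tnnt2, Actn2 and Ryr2 among them, were present in every group. Their summed level was 53164 to 57299 CPM in vehicle, 78320 to 79184 in phenylephrine and 61325 to 85318 in IGF1 samples. The top of the IGF1 range was replicate 1, with Actc1 at 18326 CPM against 8292 and 8631 CPM in replicates 2 and 3. IGF1 replicate 1 stood apart from its group: a chi-square of its counts against IGF1 replicates 2 and 3 gave 85.5 and 82.8 per degree of freedom, against 2.99 to 7.44 for the other pairs of replicates. Values without it are given for the members and for some other genes in which it lay far from its group. Leaving it out ended none of the 86 calls on named genes of the related lists. Of the 6 genes, 5 were among the 11873 that passed the filter on low counts, and Car4 was not. The TMM-scaled level of each gene in each sample is plotted first.

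**Figure D1:**
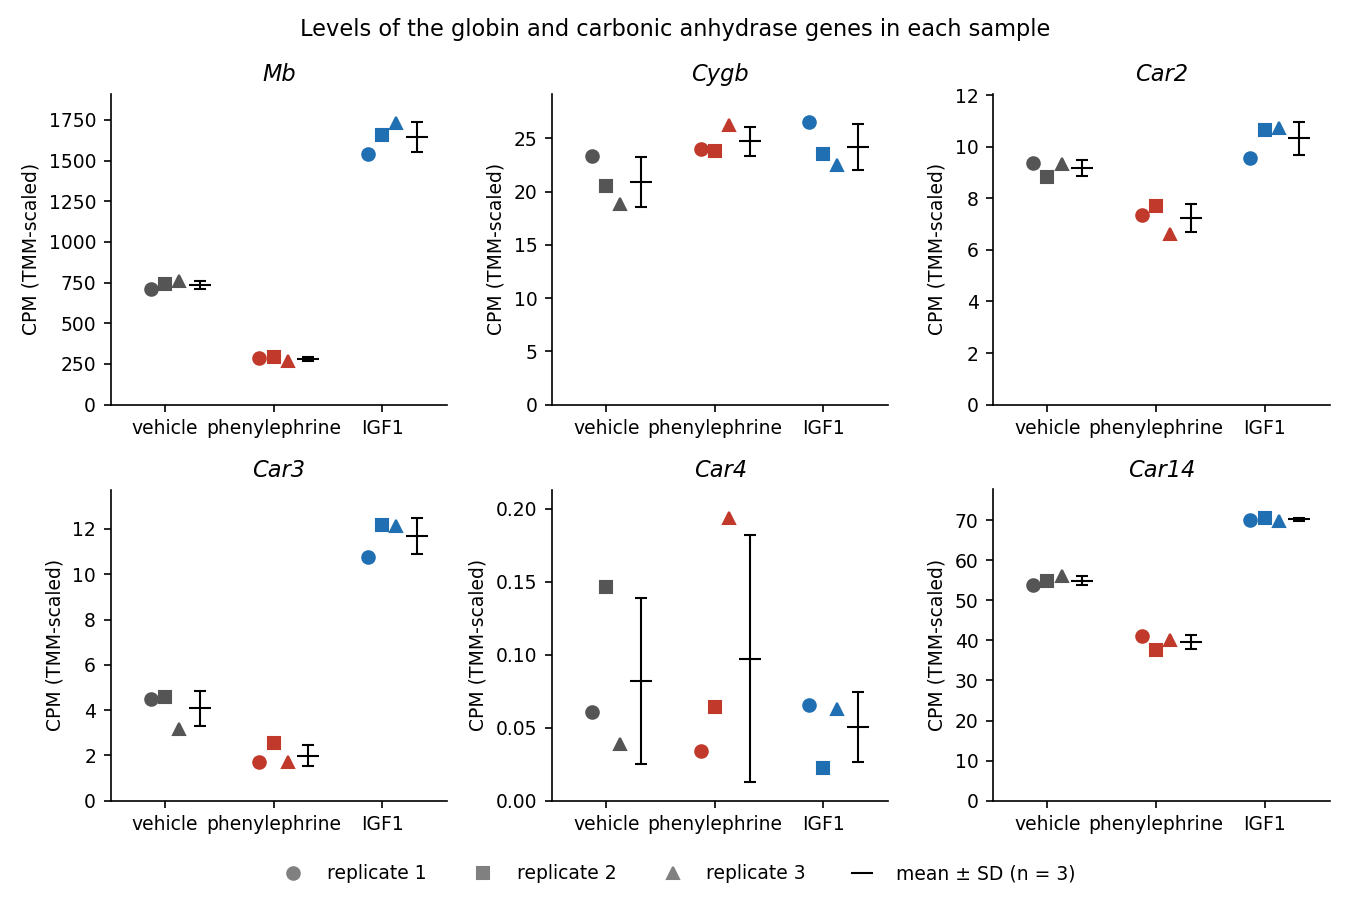
Level in CPM (y axis, from 0, a different scale in each panel) of the 6 genes in vehicle, phenylephrine and IGF1 samples. Each point is 1 sample, its shape the replicate number, and the bar beside it is the mean ± SD of 3 samples. For Mb the 3 phenylephrine samples lie at 268 to 293 CPM, the vehicle samples at 710.2 to 760.1 and the IGF1 samples at 1544 to 1730.4, while for Car4 every point rests on 6 reads or fewer.

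Mb, the muscle oxygen store, was read at 710.2, 740.4 and 760.1 CPM in vehicle replicates 1, 2 and 3, at 285, 293 and 268 CPM with phenylephrine and at 1544, 1660 and 1730.4 CPM with IGF1. The 3 groups did not overlap, and phenylephrine and IGF1 stood on opposite sides of vehicle. The means were 737 ± 25.2, 282 ± 12.9 and 1645 ± 94.2 CPM (SD, n = 3 each), from 104647, 25726 and 202989 reads. Mb was thus 2.62-fold lower with phenylephrine than with vehicle (log2 fold change -1.39, SE 0.053) and 2.23-fold higher with IGF1 (log2 1.16, SE 0.052). Against IGF1, Mb with phenylephrine was 5.84-fold lower (log2 -2.55, SE 0.055). In the comparison with vehicle, 266 of the 11873 genes tested (2.24%) had a larger fall with phenylephrine than Mb and 226 (1.9%) a larger rise with IGF1. Without IGF1 replicate 1, the lowest of its group, the IGF1 values were log2 1.20 against vehicle and -2.59 for phenylephrine against IGF1. Of the 12 cardiomyocyte markers, 8 were higher and 4 lower with phenylephrine than with vehicle. Their sum was higher, led by Actc1 (whose counts may share reads with the near-identical Acta1) at 18461 CPM against 6023 CPM, while Tnni3, Ryr2, Pln and Mybpc3 were lower, as Mb was. With IGF1, where Mb was higher, 8 of the 12 markers were higher and 1 lower than with vehicle (edgeR adjusted p under 0.05). The part of cardiomyocyte content in the Mb differences was not tested. In these bulk samples fewer cells of a type and less RNA per cell cannot be told apart. In RefSeq (GRCr8) the Mb gene overlaps other annotated loci, none of them a row of the count table, which was made on the rn5 build. No source here states the strand setting of the counting, so reads of those loci cannot be told apart from reads of Mb.

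Cygb, the nitric oxide-consuming globin of fibroblast-like cells, did not follow Mb. Its level was 23.4, 20.5 and 18.8 CPM in vehicle replicates 1, 2 and 3, 24.0, 23.8 and 26.3 CPM with phenylephrine and 26.6, 23.5 and 22.5 CPM with IGF1. Vehicle replicate 1 was nearly level with the lowest phenylephrine sample, and the IGF1 samples overlapped both other groups. The means were 20.9 ± 2.31, 24.7 ± 1.37 and 24.2 ± 2.12 CPM (SD, n = 3 each), from 2968, 2259 and 2922 reads. Cygb was 1.18-fold higher with phenylephrine than with vehicle (log2 0.24, SE 0.087) and 1.15-fold higher with IGF1 (log2 0.21, SE 0.086), while phenylephrine and IGF1 differed by log2 0.04 (SE 0.087). With library size as the only scaling the phenylephrine and vehicle samples of Cygb overlapped and the log2 difference was 0.047. Without IGF1 replicate 1, the highest of its group, Cygb differed by log2 0.14 between IGF1 and vehicle and by 0.10 between phenylephrine and IGF1. All 11 fibroblast markers looked at had reads. Col1a2, with 25, 9 and 15 reads in all in the vehicle, phenylephrine and IGF1 groups, did not pass the filter. Their summed level was 5117 to 6115 CPM in vehicle, 4761 to 4856 CPM in phenylephrine and 5984 to 6913 CPM in IGF1 samples. The sum was thus lowest with phenylephrine, and it rests mainly on Col1a1 and Col3a1 (means of 3460 and 1438 CPM in vehicle). Of the 10 markers tested, 1 was higher and 5 were lower with phenylephrine than with vehicle (edgeR adjusted p under 0.05). The mean of Dcn was highest with phenylephrine, at 117 CPM against 99.2 in vehicle and 94.7 with IGF1. The part of fibroblast content in the Cygb differences was not tested. In RefSeq Cygb overlaps Prcd, which was not analysed here, and without a statement on strand the reads of both cannot be told apart.

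Car2, the fast cytosolic carbonic anhydrase, was read at 9.38, 8.82 and 9.34 CPM in vehicle replicates 1, 2 and 3, at 7.35, 7.71 and 6.62 CPM with phenylephrine and at 9.58, 10.7 and 10.7 CPM with IGF1. All phenylephrine samples were below all others, and the lowest IGF1 sample, replicate 1, was just above the highest vehicle sample. The means were 9.18 ± 0.313, 7.23 ± 0.552 and 10.3 ± 0.645 CPM (SD, n = 3 each), from 1307, 660 and 1275 reads. Car2 was 1.27-fold lower with phenylephrine than with vehicle (log2 -0.35, SE 0.096), 1.13-fold higher with IGF1 (log2 0.17, SE 0.092) and 1.43-fold lower with phenylephrine than with IGF1 (log2 -0.52, SE 0.097). The vehicle and IGF1 samples overlapped when library size was the only scaling, so this neighbouring pair is not separated beyond its spread under both scalings. The IGF1 difference was log2 0.22 without IGF1 replicate 1, and that of phenylephrine against IGF1 -0.57.

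Car3, the slow cytosolic isoform, had the largest relative difference between IGF1 and vehicle among the 5 genes. Its level was 4.47, 4.57 and 3.18 CPM in vehicle replicates 1, 2 and 3, 1.72, 2.53 and 1.71 CPM with phenylephrine and 10.8, 12.2 and 12.1 CPM with IGF1. Every IGF1 sample was above every other sample, and the phenylephrine samples were all below the vehicle samples. These values rest on few reads, 164 to 221 per vehicle sample, 50 to 79 per phenylephrine sample and 327 to 579 per IGF1 sample. The means were 4.07 ± 0.775, 1.99 ± 0.468 and 11.7 ± 0.802 CPM (SD, n = 3 each), which put the spread within the vehicle and phenylephrine groups at 19.0% and 23.6% of the mean, against 3.41% and 4.57% for Mb. Car3 was 2.04-fold lower with phenylephrine than with vehicle (log2 -1.03, SE 0.18) and 2.88-fold higher with IGF1 (log2 1.53, SE 0.15). Phenylephrine and IGF1 differed 5.88-fold (log2 -2.56, SE 0.17), a fall exceeded by 58 of the 11873 genes tested (0.489%), and 93 genes (0.783%) had a larger rise with IGF1. Leaving out IGF1 replicate 1 gave log2 1.58 for IGF1 against vehicle and -2.61 for phenylephrine against IGF1. Skeletal muscle and fat are the usual sources of Car3. The 14 skeletal muscle markers summed to 10.1 to 12.5 CPM in vehicle, 15.9 to 19.4 in phenylephrine and 11.4 to 43.7 in IGF1 samples, with Myf5 and Pax7 at 0 throughout. The top of that range is IGF1 replicate 1, in which embryonic myosin Myh3 was at 28.1 CPM against 2.64 and 2.72 in the other two, and Car3 was lowest of its group in that sample. Against vehicle, 1 of the 8 skeletal muscle markers tested was higher and 0 were lower with phenylephrine. With IGF1, 3 were higher and 1 was lower (edgeR adjusted p under 0.05). Without IGF1 replicate 1, Pvalb, Tnni2 and Tnnt1 were higher with IGF1 (log2 1.46, 1.32 and 0.92) and Myh2 was lower (-1.25). The 9 adipocyte markers in the table summed to 33.4 to 37.8 CPM in vehicle, 19.1 to 22.3 in phenylephrine and 20.8 to 22.1 in IGF1 samples, and 5 of them had under 3 reads in every sample. The adipocyte sum was lower than in vehicle with both treatments, while Car3 was lower with phenylephrine and higher with IGF1. The part of skeletal muscle or fat cells in the Car3 differences was not tested.

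Car14, the transmembrane isoform, differed less between groups than Mb or Car3 but had a small spread within them. It was read at 53.9, 54.9 and 56.0 CPM in vehicle replicates 1, 2 and 3, at 41.2, 37.7 and 40.0 CPM with phenylephrine and at 70.0, 70.6 and 69.9 CPM with IGF1. The 3 groups did not overlap, and the IGF1 samples lay within 1 CPM of each other. That closeness depended on the scaling. With library size as the only scaling the groups still did not overlap, but the IGF1 samples were at 66.5, 73.2 and 72.2 CPM. Their spread was then 5.07% of the mean, against 0.534% with TMM. The means were 54.9 ± 1.08, 39.6 ± 1.79 and 70.2 ± 0.375 CPM (SD, n = 3 each), from 7803, 3616 and 8591 reads. Car14 was 1.39-fold lower with phenylephrine than with vehicle (log2 -0.47, SE 0.046), 1.28-fold higher with IGF1 (log2 0.35, SE 0.044) and 1.77-fold lower with phenylephrine than with IGF1 (log2 -0.82, SE 0.046). Of all genes tested, 16.5% had a larger fall with phenylephrine against vehicle than Car14 and 14.7% a larger rise with IGF1. With IGF1 replicate 1 left out, the IGF1 values were log2 0.36 against vehicle and -0.83 for phenylephrine against IGF1.

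Car4, the lipid-anchored isoform known from capillary endothelium and heart muscle, was near the limit of these libraries. It had 3, 6 and 2 reads in vehicle replicates 1, 2 and 3, 1, 2 and 6 reads with phenylephrine and 2, 1 and 3 reads with IGF1. The 3 groups overlapped, and sums of 11, 9 and 6 reads allow no statement on a difference. A count of 3 reads corresponded to 0.0582 to 0.103 CPM in these samples. The 10 endothelial markers were present but low, with a summed level of 79.3 to 87.0 CPM in vehicle, 63.7 to 76.3 in phenylephrine and 35.8 to 42.0 in IGF1 samples.

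Across the 5 genes that passed the filter, the order phenylephrine, vehicle, IGF1 from low to high held for the means of Mb, Car2, Car3 and Car14, and the order vehicle, IGF1, phenylephrine for Cygb. In phenylephrine against vehicle, 4 of the 5 genes had all 3 phenylephrine samples below all vehicle samples and 1 had them above. Over all 11873 genes tested 34.0% were lower and 32.6% higher in this way. In IGF1 against vehicle, 4 genes were higher with no overlap, Cygb overlapped and none was lower, beside 28.8% and 27.7% of all tested genes that were higher and lower with no overlap. For phenylephrine against IGF1, 4 genes were lower with no overlap and Cygb overlapped, beside 29.5% of all genes lower and 29.3% higher. Nothing is read from these counts, since the genes were picked with these differences known, and the 2 comparisons with vehicle share the vehicle samples. Against the middle 90% of all tested genes, which spanned log2 -0.972 to 0.814 in phenylephrine against vehicle and -0.748 to 0.721 in IGF1 against vehicle, Mb and Car3 lay outside in both, while Car2, Car14 and Cygb lay inside.

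**Figure D2:**
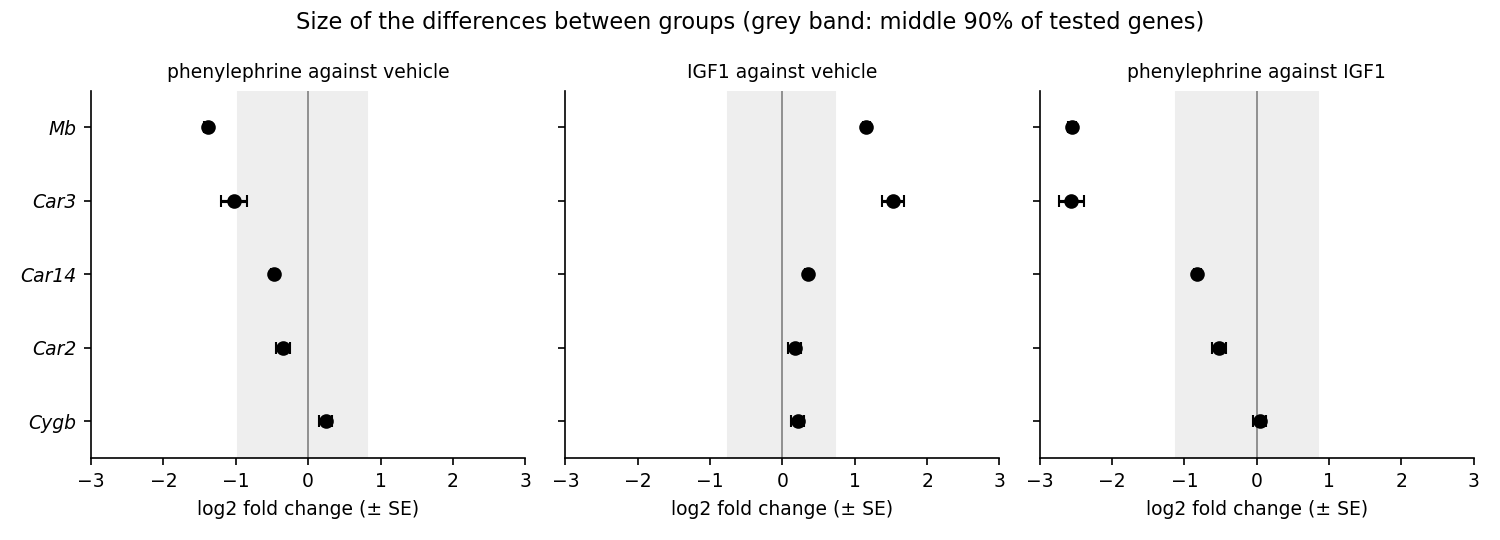
Fold change on a log2 scale (x axis) of the 5 genes in the 3 comparisons, as points with ± SE from edgeR, with the middle 90% of the 11873 tested genes in grey. Mb and Car3 lie outside the grey band in all 3 panels, at -1.39 and -1.03, 1.16 and 1.53, and -2.55 and -2.56, and Cygb lies at 0.24, 0.21 and 0.04.

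The likeness of the genes' profiles was measured as the root mean square difference of log2 CPM over the 9 samples after each gene was centred on its own mean, so that 0 means the same relative pattern. Car2 and Car14 were closest, at 0.16, followed by Mb and Car3 at 0.27 and Cygb and Car2 at 0.31. Cygb was farthest from Mb and from Car3, at 1.1 in both cases. Car2 and Car3 are next to each other in the RefSeq annotation, with Car1 on the far side of Car3, yet their profiles lay 0.87 apart. Car1 itself, the red cell isoform, had 2, 1 and 5 reads in all in the vehicle, phenylephrine and IGF1 groups. These are descriptions over 9 samples that share 3 groups, and the measure depends on the size of the group differences as well as on their order.

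Among the tested genes that reached a mean of 5 CPM in some group, those with the profile most like Mb were Doc2g at 0.13 and Troap and Neurl1b at 0.23. Doc2g was 2.78-fold lower with phenylephrine and 2.39-fold higher with IGF1 than with vehicle. Doc2g stood at 27.9, 31.4 and 28.9 CPM in the vehicle group, at 9.99, 10.2 and 11.5 CPM under phenylephrine and at 59.1, 73.9 and 77.3 CPM under IGF1, so that IGF1 replicate 1 was the lowest of its group for Doc2g as for Mb. Nearest to Car3 were Troap at 0.22, Kif2c at 0.25 and Cenpf at 0.26. Nearest to Car14 were Eci2 at 0.035, Sh3kbp1 at 0.051 and Hmgn2 at 0.057. For Car2 they were Fut8 at 0.038, Zadh2 at 0.045 and Ppp2r5c at 0.053, and for Cygb Emc8 at 0.061, Znhit1 at 0.065 and Btd at 0.066. Without IGF1 replicate 1 the nearest gene stayed Doc2g for Mb, Troap for Car3, Eci2 for Car14 and Fut8 for Car2, and became Klf4 for Cygb, at 0.049 over 8 samples.

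**Figure D3:**
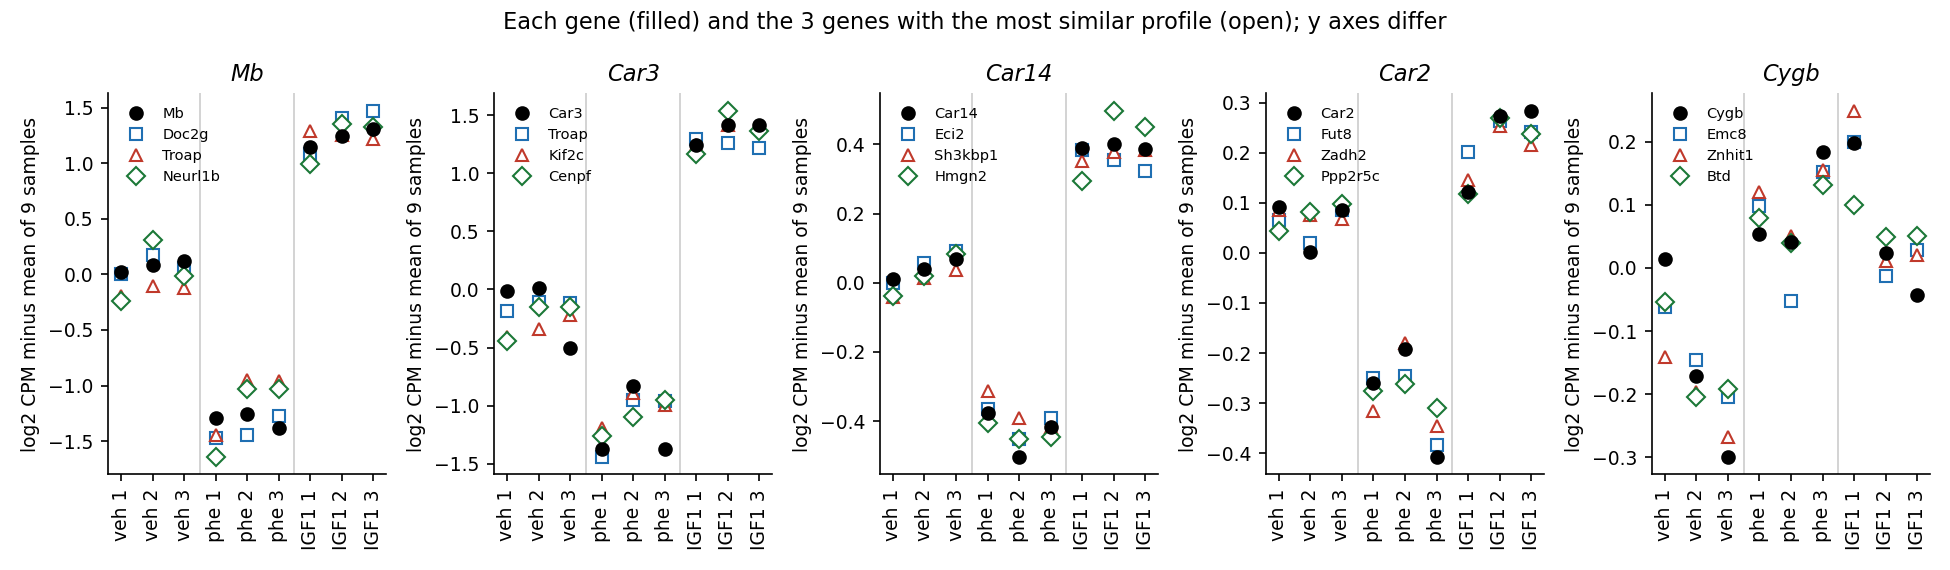
Log2 CPM minus the gene's mean over the 9 samples (y axis, a different scale in each panel), by sample (x axis: veh, vehicle; phe, phenylephrine; IGF1; replicates 1 to 3). Filled points are Mb, Car3, Car14, Car2 and Cygb, and open points the 3 genes with the smallest root mean square difference from each, from 0.035 for Eci2 and Car14 to 0.26 for Cenpf and Car3.

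Adjusted p-values below are from edgeR's quasi-likelihood test with Benjamini-Hochberg adjustment over all 11873 genes, for genes outside the 6. In phenylephrine against vehicle 27.9% of all tested genes passed the 0.05 threshold as higher and 28.9% as lower. In IGF1 against vehicle the shares were 24.7% and 23.4%, and in phenylephrine against IGF1 27.1% and 27.1%. The related lists, from other globins to regulators, held 139 tested genes without the 6, of which 39 were higher and 50 lower with phenylephrine, and 31 higher and 41 lower with IGF1, both against vehicle. For phenylephrine against IGF1 40 were higher and 34 lower. Their median log2 fold changes were -0.083, -0.05 and 0.0081 in these 3 comparisons, beside -0.029, -0.0018 and -0.0025 over all tested genes. Without IGF1 replicate 1 the counts were 40 higher and 45 lower in IGF1 against vehicle, and 47 and 44 in phenylephrine against IGF1.

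Of the 9 other globin rows, only neuroglobin (Ngb) passed the filter, at 15, 15 and 24 reads in vehicle, 4, 4 and 6 with phenylephrine and 4, 12 and 24 with IGF1. Its phenylephrine samples were all below the vehicle samples, by log2 -1.29 (SE 0.54), with an adjusted p of 0.052. The Ngb difference passed, at log2 -1.28 to -1.3, with the replicate block (0.041), with the 2 groups alone (0.036) and without IGF1 replicate 1 (0.035) or 3 (0.038), and at -1.48 with library size as the only scaling (0.028). The beta globin gene Hbb had 4, 5 and 3 reads in vehicle, 2, 0 and 0 with phenylephrine and 15, 23 and 11 with IGF1. Hbb was kept out by the filter, and without a filter its adjusted p was 0.0056 for IGF1 against vehicle (log2 2.22), 0.19 for phenylephrine against vehicle and 0.00053 for phenylephrine against IGF1. Hba2, an alpha globin, had 13, 2 and 30 reads per group, and Hbg1 and Hbz had none. Globin transcripts are abundant in red cell precursors. A sum over 7 erythroid markers that are not globins was 1.12 to 1.76 CPM in vehicle, 1.13 to 1.39 CPM in phenylephrine and 2.24 to 2.41 CPM in IGF1 samples, thus highest in the IGF1 group, as Hbb was. Of the 7, Gata1 was at 0 in every sample. The part of red cell RNA in the Hbb counts was not tested.

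Of the 11 other carbonic anhydrase rows, 7 were tested, of which Car5b was higher and Car9 and Car11 were lower with phenylephrine than with vehicle. With IGF1, Car9 was higher and Car8 and Car11 were lower. Car9, a membrane isoform known as a target of hypoxia signalling, followed the order of Mb and Car14. It was at 4.33, 4.33 and 4.71 CPM in vehicle replicates 1, 2 and 3, at 2.61, 3.52 and 2.81 with phenylephrine and at 5.96, 5.56 and 6.58 with IGF1, with no overlap between groups. Car9 was 1.49-fold lower with phenylephrine (log2 -0.58, SE 0.14, adjusted p = 0.003) and 1.35-fold higher with IGF1 (log2 0.44, SE 0.13, adjusted p = 0.013), each against vehicle. The IGF1 call was lost without vehicle replicate 1 (adjusted p = 0.053) or IGF1 replicate 3 (adjusted p = 0.073). Car11, a catalytically inactive relative, was lower with both treatments, at 25.4 ± 0.623 CPM in vehicle, 16.1 ± 0.939 with phenylephrine and 17.3 ± 1.43 with IGF1 (SD, n = 3; adjusted p = 3e-06 and 2.1e-05).

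Car5b, the mitochondrial isoform, went the other way from Car14: it was 1.38-fold higher with phenylephrine than with vehicle (log2 0.47, SE 0.13, adjusted p = 0.0065), a call lost when library size was the only scaling (adjusted p = 0.097), and 1.61-fold higher than with IGF1 (adjusted p = 0.00048). Car8, another inactive relative, was 1.38-fold lower with IGF1 than with vehicle (adjusted p = 0.021), which did not pass without vehicle replicate 1 (0.072) or IGF1 replicate 3 (0.054). Between phenylephrine and IGF1, Car5b, Car8 and Car12 were higher and Car9 and Car6 lower with phenylephrine. Car12 rested on 53 and 32 reads per group (adjusted p = 0.027, and 0.15 without phenylephrine replicate 1, 0.061 without IGF1 replicate 2 and 0.09 without IGF1 replicate 3), and Car6 on 81 and 202 (0.015, and 0.071 without phenylephrine replicate 2). Car13 passed in none of the 3 comparisons. Car1, Car5a, Car7 and Car15 had at most 6 reads in a sample.

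**Figure D4:**
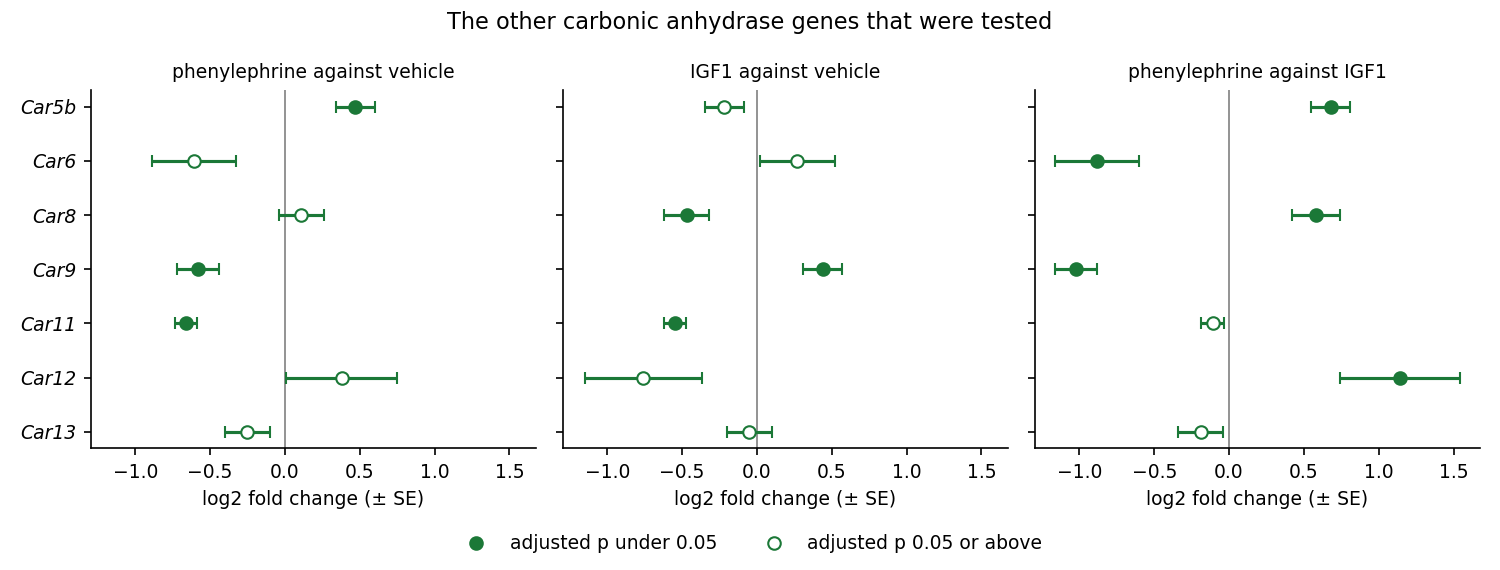
Fold change on a log2 scale (x axis) with ± SE for the 7 tested carbonic anhydrase genes outside the 6, in the 3 comparisons. Filled points passed an edgeR adjusted p of 0.05. Car9 lies at -0.58, 0.44 and -1.02 and Car5b at 0.47, -0.22 and 0.68, on opposite sides of 0 in each panel.

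Carbonic anhydrases work beside carriers of bicarbonate, protons and lactate. Of the 25 such genes tested, 5 were higher and 7 lower with phenylephrine, and 5 higher and 3 lower with IGF1, against vehicle. With library size as the only scaling 3 were higher with phenylephrine. The lactate carrier Slc16a3 rose 2.98-fold with phenylephrine (adjusted p = 4e-05) and 2.52-fold with IGF1 (0.00014), and Slc16a1 rose 1.36-fold and 1.28-fold (8.4e-06 and 8.7e-05). The bicarbonate carriers Slc26a6 and Slc4a4 fell 1.63-fold and 1.50-fold with phenylephrine, as Car14 was lower there, while the anion exchanger Slc4a3 was 1.14-fold higher (adjusted p = 0.0033), a difference of log2 -0.00108 with library size as the only scaling. Basigin (Bsg), which carries the lactate carriers to the membrane, was 1.07-fold higher with both treatments (adjusted p = 0.074 and 0.11). Its phenylephrine difference passed at about the same size with DESeq2 (0.035), with the 2 groups alone (0.00058) and without IGF1 replicate 1 (0.00097), and had the opposite sign when library size was the only scaling (log2 -0.0898, adjusted p = 0.036). In phenylephrine against IGF1, 3 carriers were higher and 5 lower, with the scaffold protein Slc9a3r2 1.51-fold and Slc4a2 1.13-fold higher, and Slc4a4 1.58-fold and Slc26a6 1.51-fold lower with phenylephrine. Slc9a3r2 was also 1.40-fold lower with IGF1 than with vehicle. The water channel Aqp1 rose 1.53-fold with IGF1 (adjusted p = 0.026), a call lost without any one of the 3 vehicle samples (0.055 to 0.084). IGF1 replicate 1 was at 779 CPM against 505 and 507 CPM in the other two, and without it Aqp1 was 1.29-fold higher with IGF1 (8.8e-09) and 1.35-fold higher with phenylephrine (3.6e-11). The rise of Slc16a3 with IGF1 was 2.25-fold without that sample.

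Myoglobin and cytoglobin need haem. Of 29 tested genes of haem synthesis, transport and breakdown, 11 were higher and 10 lower with phenylephrine, and 8 higher and 14 lower with IGF1. With library size as the only scaling the phenylephrine counts were 6 higher and 16 lower. The rate-limiting enzyme Alas1 rose 1.60-fold with phenylephrine (adjusted p = 0.0017) and 1.81-fold with IGF1 (0.00062). The transferrin receptor Tfrc rose 1.97-fold and 2.72-fold (2.2e-05 and 2.2e-06). A link between the haem genes and the Mb differences was not tested. Without IGF1 replicate 1 the IGF1 rises were 1.61-fold for Alas1 and 2.46-fold for Tfrc. Uros, a later enzyme of haem synthesis, fell 1.29-fold with phenylephrine. Haem oxygenase Hmox1, which breaks haem down, fell 1.73-fold with IGF1 (adjusted p = 1.1e-07) and was 1.08-fold higher with phenylephrine (adjusted p = 0.13). The haem transporter Slc48a1 fell 1.32-fold with phenylephrine, and the haem-binding protein Pgrmc1 fell 1.45-fold with IGF1. Between phenylephrine and IGF1, 11 were higher and 6 lower, with Hmox1 1.87-fold and Pgrmc1 1.54-fold higher and Tfrc 1.38-fold lower with phenylephrine.

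Oxidised globins are reduced again by cytochrome b5 and its reductases, and both globins consume nitric oxide. Of 18 tested genes of these functions, 4 were higher and 5 lower with phenylephrine, and 3 higher and 5 lower with IGF1, the last becoming 3 without vehicle replicate 1. With library size as the only scaling 8 were lower with phenylephrine. Cyb5b rose 1.34-fold with IGF1 (adjusted p = 1.1e-06). With phenylephrine it was 1.09-fold higher (0.017), which was lost without any one vehicle sample (0.052 to 0.089) or phenylephrine replicate 2 (0.062), stood at 0.00097 without IGF1 replicate 1, and changed sign with library size as the only scaling (log2 -0.0656). The reductase Cyb5r3 rose 1.67-fold with phenylephrine, whereas Cyb5r2 fell 2.76-fold with phenylephrine and 2.07-fold with IGF1. Ddah1, which removes inhibitors of nitric oxide synthesis, rose 2.64-fold and 1.63-fold. Endothelial nitric oxide synthase Nos3 had a mean under 1 CPM in each group, with adjusted p = 0.12 and 0.2. Its vehicle replicate 2 was at 1.22 CPM, against 0.526 and 0.504 CPM in vehicle replicates 1 and 3. Nos1ap, a partner of another nitric oxide synthase, fell 1.67-fold with phenylephrine, and the reductase Cyb5r1 fell 1.40-fold with IGF1. Between phenylephrine and IGF1, 5 were higher and 6 lower, with Nos1ap 1.72-fold and the guanylate cyclase subunit Gucy1a3 1.38-fold lower with phenylephrine.

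Mb and Car9 are known hypoxia-responsive genes. Of 30 tested genes of the hypoxia response, 5 were higher and 15 lower with phenylephrine, and 6 higher and 9 lower with IGF1, against vehicle. The 5 became 8 without IGF1 replicate 1 or with the 2 groups fitted alone and 3 without any one vehicle sample or phenylephrine replicate 2 or 3, and the 6 became 10 without IGF1 replicate 1. Hif1a, the oxygen-regulated transcription factor, fell 1.27-fold with phenylephrine (adjusted p = 1.2e-05) and was 1.07-fold higher with IGF1 (0.066, and 0.00044 without IGF1 replicate 1). Its relative Epas1 was 1.16-fold lower with phenylephrine (0.033), not called without any one vehicle sample or phenylephrine replicate 1 or 2 (0.052 to 0.14), and at 0.00015 without IGF1 replicate 1. Vegfa, a hypoxia target, fell with both treatments, 1.16-fold and 1.46-fold (0.004 and 1.8e-06), and Mxi1 fell 2.22-fold and 2.77-fold. Egln3 rose 1.83-fold and Adm fell 1.66-fold with phenylephrine. A link between the hypoxia genes and the Mb differences was not tested. Ddit4 and Higd1a rose 1.60-fold and 1.47-fold with IGF1, and Ndrg1 fell 1.98-fold. Between phenylephrine and IGF1, 9 were higher and 6 lower, the latter 12 without IGF1 replicate 1 and 11 with library size as the only scaling. The stretch-responsive gene Ankrd1 stood at 3602 to 3678 CPM in vehicle and 9909 to 10131 CPM in phenylephrine samples, a 2.75-fold rise (0.034). Its IGF1 samples were at 6085, 1973 and 2012 CPM, and the SE is shared by all groups. Without IGF1 replicate 1 the adjusted p was 1.1e-35, and without any one vehicle or phenylephrine sample the difference kept log2 1.44 to 1.47 but did not pass (0.074 to 0.091).

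Mb and other genes of oxidative muscle are known to be under calcineurin, MEF2 and PGC-1alpha. Of 31 tested regulators, 13 were higher and 12 lower with phenylephrine, and 9 higher and 8 lower with IGF1. The numbers higher were 4 in both comparisons with library size as the only scaling. Ppargc1a, which encodes PGC-1alpha, fell 1.48-fold with phenylephrine (adjusted p = 4.5e-06) and was 1.05-fold lower with IGF1 (adjusted p = 0.39). Camk2d had the order of Mb: it fell 1.35-fold with phenylephrine (2.2e-06) and rose 1.31-fold with IGF1 (7.9e-06). Gata4 rose 1.62-fold with phenylephrine, Prox1 fell 1.67-fold, and Nfatc2 fell 2.04-fold and 1.71-fold with phenylephrine and IGF1. The calcineurin target Rcan1 was 2.30-fold higher with phenylephrine (0.042). That call was lost with the replicate block (0.066), without a filter (0.051) and without any one vehicle or phenylephrine sample (0.09 to 0.11), at log2 1.15 to 1.22. Rcan1 was at 628, 231 and 239 CPM in the IGF1 samples, and without IGF1 replicate 1 the phenylephrine difference was again 2.30-fold (9.6e-32). Rcan2 fell 1.60-fold with phenylephrine (4.8e-09) and rose 1.10-fold with IGF1 (0.01), the same order of groups as Mb. Nfatc4 fell 1.37-fold and Ppp3cb, a calcineurin subunit, rose 1.25-fold with IGF1. Against IGF1, 10 regulators were higher and 10 lower with phenylephrine. A link between these regulators and the Mb differences was not tested.

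**Figure D5:**
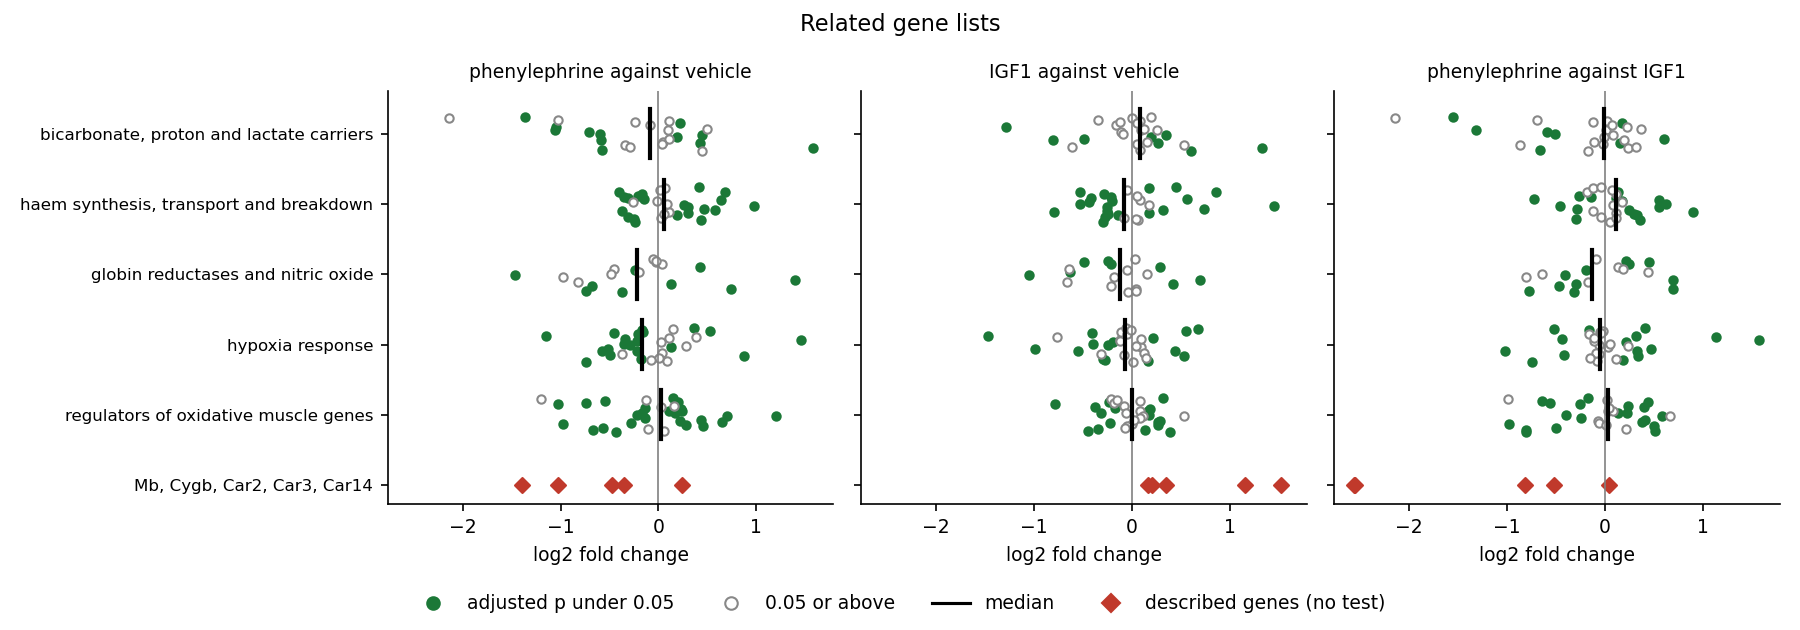
Fold change on a log2 scale (x axis) of each tested gene of 5 related lists (rows), in the 3 comparisons, with Mb, Cygb, Car2, Car3 and Car14 in the lowest row. Green points passed an edgeR adjusted p of 0.05, open points did not, black bars are medians and red diamonds have no test. Most genes of each list lie nearer to 0 than Mb and Car3, which reach -2.55 and -2.56 in phenylephrine against IGF1.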

How the data were processed

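The deposited values were raw read counts per gene for 9 samples, whole numbers with no normalization. The rat genome build was rn5 and the tools named are STAR, HTSeq and DESeq, per the submitters' processing notes, and per the labels' protocols libraries were made with a NuGEN Ovation kit. Versions and the strand setting are not given in the sources used here. Groups and replicate numbers came from the sample titles.

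In R 4.3.3, edgeR 4.0.16 kept genes by filterByExpr (minimum count 10, minimum total 15), which left 11873 of 17327 genes with 99.99% of the counts. After TMM scaling (trimmed mean of M-values), a quasi-likelihood model with group as its only term was fitted robustly to the 9 samples. P-values were Benjamini-Hochberg adjusted over all tested genes, with a threshold of 0.05. The SE is the absolute log2 fold change over the square root of F. Levels are TMM-scaled CPM, and log2 profiles used a prior count of 2. The scripts were tested on simulated data.

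The members and lists were chosen with earlier results of these data known. Named genes are the 6 members, other globins and carbonic anhydrases, the 3 nearest profiles, and from each other list and comparison the 2 largest rises and 2 largest falls that passed the test (mean of 5 CPM or more in a group), plus set genes such as Hif1a and Ppargc1a. A few genes under this rule are not reported here. For some named genes values from the other comparisons are given too. Alternatives were DESeq2 1.42.0, limma-voom (limma 3.58.1), other factors and filters, 2 groups alone, the replicate block and leaving out each sample. Markers of macrophages, smooth muscle, glia and epicardium were summed too.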

Additional observations from a re-analysis of the deposited data

How the results depend on the processing

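Of 17 alternative settings, scaling by library size only moved the most values. It moved the median log2 fold change of all genes from -0.029 to -0.22 in phenylephrine against vehicle and from -0.0025 to -0.11 in phenylephrine against IGF1, and the values below include that shift. With it, phenylephrine against vehicle gave log2 -1.58 for Mb, 0.0469 for Cygb, -0.54 for Car2 and -0.666 for Car14. Car14 was at 0.27 in IGF1 against vehicle, and in phenylephrine against IGF1 Mb was at -2.66 and Car14 at -0.936. Genes called higher and lower became 1751 and 5696 (3310 and 3429 with TMM) in phenylephrine against vehicle, 2031 and 3614 (2935 and 2781) in IGF1 against vehicle, and 2132 and 4366 (3215 and 3222) in phenylephrine against IGF1. Genes of the related lists called higher with phenylephrine against vehicle became 20 (39). Bsg changed sign to -0.0898 against vehicle and -0.0991 against IGF1, and, against vehicle, Slc4a3 to -0.00108 and Cyb5b to -0.0656. The cause was not tested. Of the 5 members, only Cygb changed sign, in phenylephrine against IGF1 (0.0352 to -0.0734), also when single samples were left out (-0.0196 to 0.104). Leaving out each sample kept Mb at -1.43 to -1.35, 1.11 to 1.2 and -2.59 to -2.51 in the 3 comparisons, and Car3 at -1.24 to -0.928, 1.37 to 1.61 and -2.77 to -2.46. Of 86 calls on named genes, 71 held in all settings.

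Replicate numbers did not pair the samples, since same-numbered samples deviated together with r of -0.085 to 0.021. With the replicate block the counts were 3253 higher and 3395 lower in phenylephrine against vehicle, and Mb stood at -1.39, 1.16 and -2.54 in the 3 comparisons. Depth limits Car4, the other globins and Car12, which rest on few reads.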
